A study of Mus musculus with 4 samples.

Results

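The interleukin 1 (IL-1) family and its receptors are described here in medullary thymic epithelial cells (mTECs) through 10 genes, *Il1rn*, *Il1a*, *Il1b*, *Il1r1*, *Il1r2*, *Il1rap*, *Il18*, *Il18bp*, *Il33* and *Il1rl1*, chosen by symbol from the 23337 genes of the series. All 10 passed the filter on low counts that left 18547 genes for testing. The choice was made with the comparison of the groups known, and *Il1rn* was included for its difference between them, so the values of these 10 genes in this comparison are a description and carry no p-value.

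mTECs were sorted from the thymus of 4-week-old C57BL/6 mice as CD45-EpCAM+UEA-1+Ly51- cells and sequenced in 4 libraries. The 2 libraries of the first group were labelled wild type (WT) and came from mice without Cre. The 2 of the second group were labelled *Sirt6*-/-, and by the study's methods they came from *Foxn1*-Cre *Sirt6* loxp/loxp mice, in which Cre is active in thymic epithelial cells and not in the whole animal. *Sirt6* encodes a chromatin-bound deacetylase, and the comparison asked how its loss alters gene expression in mTECs. The loxP alleles carried by the WT mice and the number of mice in each library are not given in the sources used here, so the spread between libraries may in part be technical.

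The targeted gene was not lower in the libraries labelled *Sirt6*-/-. *Sirt6* had 622 counts in WT 1, 755 in WT 2, and 882 and 835 in the second group. With edgeR's quasi-likelihood test this gave a log2 fold change of 0.37 ± 0.32 (standard error) at an adjusted p = 0.80. Counts over a whole gene also take in reads from exons that stay in place after recombination, so this value does not check the deletion itself, and each direction below rests on the labels. Total counts lay between 61102704 and 65907745 in the 4 libraries. Of the 10 TEC and mTEC markers, none was under 1 CPM (read counts scaled to library size with TMM factors) in any library. They summed to 11500 to 12700 CPM, of which the MHC class II gene *H2-Aa*, which antigen-presenting cells of other types carry too, made up 7120 to 8230 CPM. The 9 others summed to 4010 to 5130 CPM. *Ptprc*, which encodes the CD45 antigen that the sort was to remove, was present at 264 to 433 CPM. With bulk RNA, fewer cells of a type and less RNA per cell cannot be told apart.

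IL-1α and IL-1β, the products of *Il1a* and *Il1b*, are inflammatory cytokines that bind the receptor IL-1R1, which then recruits the accessory chain encoded by *Il1rap* and signals through MyD88 to NF-κB. Signaling is held in check by the receptor antagonist encoded by *Il1rn*, which occupies IL-1R1 without recruiting the accessory chain, and by the decoy receptor IL-1R2. IL-18 and its soluble inhibitor IL-18BP, and IL-33 and its receptor ST2, encoded by *Il1rl1*, form parallel systems, and ST2 shares the accessory chain. IL-33 and IL-1α are also held in the nucleus of epithelial cells and released on damage.

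The genes lie in a few clusters of the mouse genome (GRCm38, the assembly of mm10). *Il1rn* (ENSMUSG00000026981) spans chr2:24336853-24351494 on the plus strand, and *Il1a* (chr2:129299610-129309972) and *Il1b* (chr2:129364570-129371139) lie on the minus strand of the same chromosome, 104948116 bases farther on. *Il1r2* (chr1:40074079-40125231), *Il1r1* (chr1:40225080-40317257) and *Il1rl1* (chr1:40429570-40465415) follow each other on the plus strand of chromosome 1. The 4 remaining genes lie apart, *Il1rap* at chr16:26581704-26730117, *Il18* at chr9:50554827-50581840, *Il33* at chr19:29925114-29960718 and *Il18bp* on the minus strand at chr7:102014885-102018690.

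*Il1rn* is transcribed from separate starts, distal and proximal, and reads were counted over the whole gene, so the counts do not tell its transcripts apart. The 250 bases before the distal start and a proximal start are shown because *Il1rn* had the largest difference among the 10 genes, beside those of the cytokines it opposes. They were taken from RefSeq on GRCm38.p6 and are written 5′ to 3′ on the strand of the gene, with capitals for matches on either strand to TGANTCA (the AP-1 site), TATAAA (the TATA box) or the κB site of NF-κB. The distal *Il1rn* window is chr2:24336610-24336859 and the proximal one chr2:24345041-24345290, which lies within the gene. The window of a further proximal start, chr2:24345121-24345370, overlaps the latter and is not shown. The window of *Il1a* is chr2:129309973-129310222 and that of *Il1b* is chr2:129371140-129371389, both on the minus strand.
Il1rn distal: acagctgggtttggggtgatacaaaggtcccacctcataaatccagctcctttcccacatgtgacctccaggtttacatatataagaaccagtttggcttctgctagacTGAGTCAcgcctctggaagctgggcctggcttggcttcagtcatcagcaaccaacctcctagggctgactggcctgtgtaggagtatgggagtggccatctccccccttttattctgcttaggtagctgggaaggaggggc
Il1rn proximal: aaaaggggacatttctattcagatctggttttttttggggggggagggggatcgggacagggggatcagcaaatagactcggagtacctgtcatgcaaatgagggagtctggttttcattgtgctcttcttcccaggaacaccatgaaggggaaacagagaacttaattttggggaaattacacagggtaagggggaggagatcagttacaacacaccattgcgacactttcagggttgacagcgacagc
Il1a: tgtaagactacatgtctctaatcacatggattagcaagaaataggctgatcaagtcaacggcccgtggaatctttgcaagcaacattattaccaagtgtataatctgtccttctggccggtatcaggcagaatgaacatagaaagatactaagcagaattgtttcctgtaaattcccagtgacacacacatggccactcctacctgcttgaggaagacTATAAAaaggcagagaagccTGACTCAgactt
Il1b: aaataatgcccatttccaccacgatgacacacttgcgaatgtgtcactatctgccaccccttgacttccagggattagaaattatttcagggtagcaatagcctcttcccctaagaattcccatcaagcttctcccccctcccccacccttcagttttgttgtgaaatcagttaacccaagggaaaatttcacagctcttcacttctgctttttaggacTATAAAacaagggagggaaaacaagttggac

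The distal window of *Il1rn* held TGAGTCA with its first base at -141 from the start, and the proximal window held none of these motifs. *Il1a* held TATAAA at -32 and TGACTCA at -12, and *Il1b* held TATAAA at -31. Of the 15 windows found for the 10 genes, 2 held the AP-1 site, in *Il1rn* and *Il1a*. Of 32851 RefSeq windows of the same length, 6.75% held it. TATAAA was in 5 of the 15 windows, belonging to *Il1a*, *Il1b*, *Il18* and *Il33*, and in 12.4% of all windows. In *Il33* it lay at -29 from the downstream start and at -203 from the upstream one. In *Il18* it lay at -175 on the opposite strand, and the bases after that start were not found in GENCODE transcripts of the gene. The κB site was in 1 of the 15 windows, before the downstream start of *Il1r1*, and in 3.90% of all. The hexamer GAGGAA, found before PU.1-bound myeloid genes, was in the window of *Il1a* at -41, where it is not capitalised, and in 23.3% of all windows. These matches describe letters and not binding.

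*Il1rn* was the most abundant of the 10 transcripts in the libraries labelled *Sirt6*-/-. It had 10962 and 3414 counts in WT against 58423 and 73896 counts in the libraries labelled *Sirt6*-/-. Scaled to depth, this was 167 and 53.6 CPM against 968 and 1152 CPM. Both libraries labelled *Sirt6*-/- lay far above both WT libraries, and the WT libraries themselves differed 3.12-fold. The mean was 111 ± 80.5 CPM in WT and 1060 ± 130 CPM in the other group (SD, n = 2 each), a ratio of 9.59. The log2 fold change of the fit was 3.26 (standard error 0.56), at rank 156 from the top of 18547 genes. It was 4.28 without WT 1 and 2.66 without WT 2, so its size depended on which WT library was kept, while its direction did not.

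On the deposited TPM scale, which divides by transcript length, *Il1rn* stood at 150 and 48.4 TPM in WT against 852 and 1022 TPM in the libraries labelled *Sirt6*-/-. Ranked by TPM among all 23337 genes, it was number 1238 in WT 1 and 3779 in WT 2. It was number 125 and number 102 in the libraries labelled *Sirt6*-/-, where 99.5% and 99.6% of genes had a lower TPM.

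**Figure D1:**
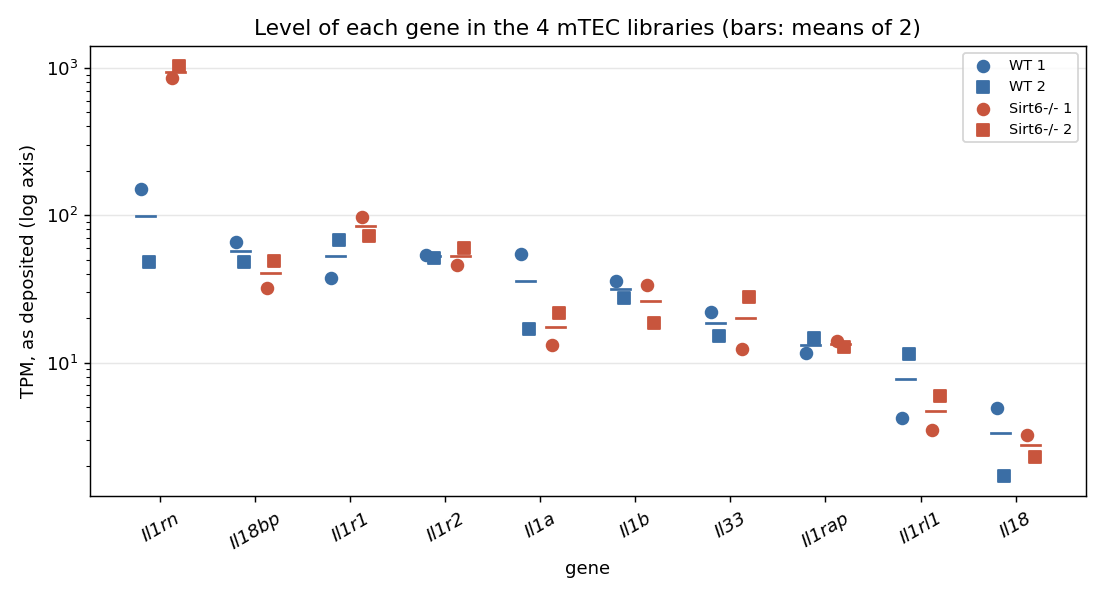
Deposited TPM (log axis) of the 10 genes in the 4 libraries, with blue for WT, red for the libraries labelled *Sirt6*-/-, circles for replicate 1, squares for replicate 2 and bars for the mean of 2. *Il1rn* is at 852 and 1022 TPM in red and at 150 and 48.4 TPM in blue, and the other genes stay under 100 TPM in all libraries.

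The agonists that the antagonist opposes showed no such difference. *Il1a* had 49.9 CPM in WT 1, 14.9 in WT 2, 11.9 in *Sirt6*-/- 1 and 19.6 in *Sirt6*-/- 2. WT 1 was alone in being high and the groups overlapped. The log2 fold change of -1.04 (standard error 0.62) became 0.05 without WT 1, so that 1 library set it. *Il1b* had 21.9 and 16.2 CPM in WT against 20.5 and 11.2 CPM in the libraries labelled *Sirt6*-/-. These values also overlapped, with a log2 fold change of -0.26 (standard error 0.40) that was 0.10 without *Sirt6*-/- 2.

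Markers of macrophages and monocytes, cells in which *Il1a*, *Il1b* and *Il1rn* are all known to be expressed, were measured beside them. The 12 genes of that list summed to 5840 CPM in WT 1 and 3400 in WT 2, and to 2230 and 2380 CPM in the libraries labelled *Sirt6*-/-. Of the 12, 6 were lower and 1 was higher at an unadjusted p of 0.05 in edgeR's test, where 3.32% and 5.27% of all genes tested were. The defining marker *Fcgr1* was under 1 CPM in all 4 libraries. *Lyz2*, the lysozyme gene and the most abundant of the list, had 4650 and 2810 CPM in WT against 1780 and 1910 CPM. WT 1, the library with most *Il1a*, was thus also the one with most macrophage RNA, whereas *Il1rn* was most abundant in the pair of libraries where the list was lowest. Between the WT libraries, *Il1rn* too was higher in WT 1. The part of these cells in the values of *Il1a* and *Il1b* was not tested. The neutrophil list summed to 1440 and 1060 CPM in WT, compared with 1230 and 1010 CPM in the other group, with 0 of its genes called by edgeR or DESeq2 at the unadjusted p, where edgeR called 8.58% of all genes tested.

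**Figure D2:**
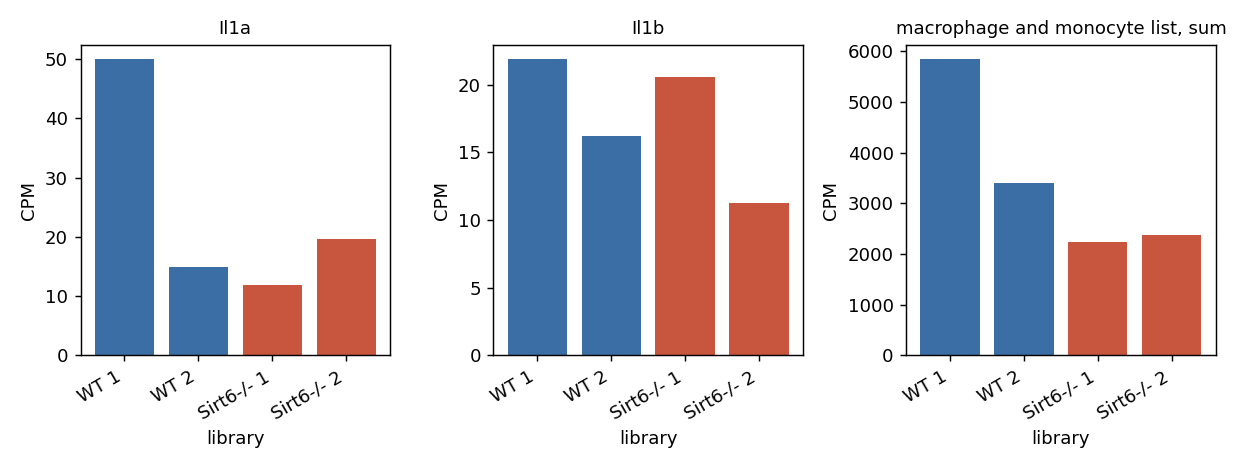
CPM of *Il1a*, of *Il1b* and of 12 macrophage and monocyte markers together in each library, as bars from 0 (blue, WT; red, labelled *Sirt6*-/-). WT 1 is highest in all 3 panels, at 49.9, 21.9 and 5840 CPM. In *Sirt6*-/- 1, where the marker sum is lowest at 2230 CPM, *Il1b* is at 20.5 CPM, close to WT 1.

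The balance of antagonist and agonist transcripts per length differed between the groups. Since *Il1rn* was included for its difference and the agonists overlapped, the ratios and shares below describe that same difference again. The TPM of *Il1rn* divided by that of *Il1a* and *Il1b* together was 1.66 in WT 1 and 1.10 in WT 2. It was 18.2 and 25.4 in the libraries labelled *Sirt6*-/-. The ratio therefore lay near 1 in WT and well above it in both other libraries. Without *Il1rn*, the 9 other genes summed to 290 and 254 TPM in WT, compared with 255 and 270 TPM in the libraries labelled *Sirt6*-/-, which overlap. *Il1rn* alone made up 34.1% and 16.0% of the summed TPM of the 10 genes in WT, and 77.0% and 79.1% in the other group.

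Of the receptors, *Il1r1*, which encodes the signaling receptor, had 82.1 and 144 CPM in WT against 213 and 159 CPM in the libraries labelled *Sirt6*-/-. The groups did not overlap, but WT 2 and *Sirt6*-/- 2 were close. The means were 113 ± 43.8 CPM and 186 ± 38.1 CPM (SD, n = 2 each), with a log2 fold change of 0.72 (standard error 0.32) that was 0.34 without WT 1 and 1.18 without WT 2. *Il1rap*, the shared accessory chain, had 20.5 and 20.8 CPM in WT against 27.4 and 23.3 CPM in the libraries labelled *Sirt6*-/-. Its log2 fold change was 0.29 (standard error 0.27) on counts. On TPM the groups overlapped, at 11.6 and 14.8 against 14.0 and 12.7 TPM, and the log2 fold change was 0.02 with limma on log2(TPM + 1).

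*Il1r2*, the decoy receptor, differed least among the 10 genes. It had 33.3 and 30.9 CPM in WT against 28.3 and 36.8 CPM in the libraries labelled *Sirt6*-/-, with a log2 fold change of 0.02 (standard error 0.27). The TPM ratio of signaling to decoy receptor, *Il1r1* over *Il1r2*, was 0.70 in WT 1, 1.32 in WT 2, 2.13 in *Sirt6*-/- 1 and 1.21 in *Sirt6*-/- 2. This ratio overlapped between the groups. *Il1r1* exceeded *Il1rap* in every library, with TPM ratios of 3.22 and 4.57 in WT against 6.96 and 5.72 in the libraries labelled *Sirt6*-/-.

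In the IL-18 arm, the transcripts of the inhibitor and of the receptor chain *Il18r1* exceeded those of the ligand. *Il18* was the least abundant of the 10, with 130 and 42 counts in WT against 78 and 59 counts in the libraries labelled *Sirt6*-/-. This was 1.99 and 0.66 CPM against 1.29 and 0.92 CPM, and the log2 fold change of -0.26 had a standard error of 1.04 and became 0.72 without WT 1. At such counts a difference of this size was not detectable. *Il18bp* had 42.7 and 30.2 CPM in WT against 20.6 and 31.1 CPM in the other group, a log2 fold change of -0.50 (standard error 0.34) with overlapping groups. Its TPM exceeded that of *Il18* by ratios of 13.4, 28.2, 9.88 and 21.2 in WT 1, WT 2, *Sirt6*-/- 1 and *Sirt6*-/- 2. *Il18r1*, a gene of the IL-18 receptor and not among the 10, had means of 56.8 TPM in WT and 48.5 TPM in the other group. *Il18bp* had 57.0 and 40.3 TPM. The other receptor chain, *Il18rap*, had means of 1.14 and 2.06 TPM, beside 3.32 and 2.77 TPM for *Il18*. It thus did not exceed the ligand in the mean.

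The IL-33 arm varied between replicates more than between groups. *Il33*, the epithelial alarmin, had 25.7 and 17.3 CPM in WT against 14.5 and 32.4 CPM in the libraries labelled *Sirt6*-/-, so that both extremes lay in the latter group. Its log2 fold change of 0.13 (standard error 0.47) was 0.60 without *Sirt6*-/- 1 and -0.58 without *Sirt6*-/- 2. *Il1rl1*, its receptor, had 6.05 and 17.8 CPM in WT against 8.02 and 10.9 CPM in the other group. Here both extremes lay in WT, and the log2 fold change of -0.33 (standard error 0.57) was -0.93 without WT 1 and 0.65 without WT 2. The mast cell and type 2 innate lymphoid cell markers, cells in which ST2 is known, summed to 323 and 325 CPM in WT, compared with 302 and 274 CPM in the libraries labelled *Sirt6*-/-. Their part in *Il1rl1* was not tested.

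Ordered by mean TPM, the levels in WT ran from *Il1rn* (99.2), *Il18bp* (57.0), *Il1r1* (52.5), *Il1r2* (52.5), *Il1a* (35.8), *Il1b* (31.5), *Il33* (18.5), *Il1rap* (13.2) and *Il1rl1* (7.78) to *Il18* (3.32). The spread was wide enough that the single values of *Il1rn*, *Il18bp*, *Il1r1* and *Il1r2* overlapped, as did those of *Il1a* and *Il1b*. In the libraries labelled *Sirt6*-/- *Il1rn* (937) stood clear of *Il1r1* (85.0), followed by *Il1r2* (52.9), *Il18bp* (40.3), *Il1b* (26.1), *Il33* (20.1), *Il1a* (17.4), *Il1rap* (13.4), *Il1rl1* (4.69) and *Il18* (2.77). The lowest value of *Il1rn* in that group, 852 TPM, was above the highest of any other of the 10 genes, 97.4 TPM for *Il1r1* in *Sirt6*-/- 1.

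Counted over the 10 genes, both libraries labelled *Sirt6*-/- lay above both WT libraries for 3 (*Il1rn*, *Il1r1* and *Il1rap*, in CPM), and the groups overlapped for the other 7. Of all genes tested, 21.6% lay above in this way, 20.3% below, and 41.9% did not overlap in either direction. The median log2 fold change was -0.12 over the 10 genes and -0.00467 over all genes tested. At an unadjusted p of 0.05, 1 of the 10 was called, *Il1rn*, where 8.58% of all genes were. Because the genes were chosen on this comparison, these counts are a description only.

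**Figure D3:**
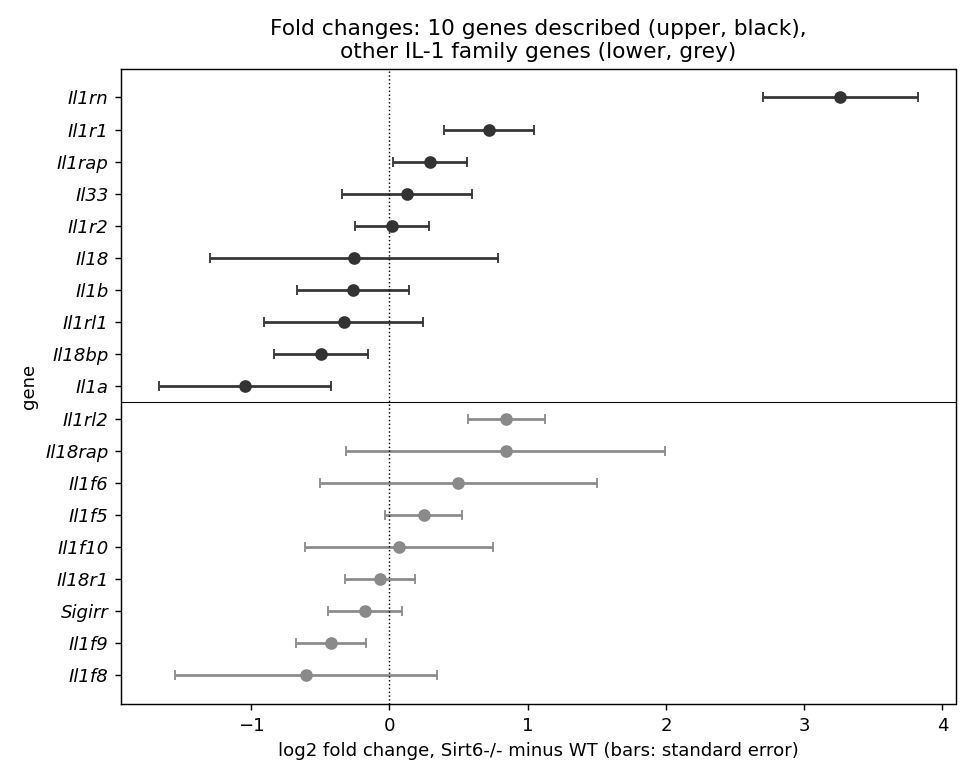
Log2 fold change (libraries labelled *Sirt6*-/- minus WT) with its standard error for the 10 genes (black) and for 9 other IL-1 family genes (grey). *Il1rn* at 3.26 stands apart, while the other genes lie between -1.04 (*Il1a*) and 0.85 (*Il1rl2*).

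The difference of *Il1rn* was not seen in the genes around it. Within 250 kb lay 8 protein-coding genes, of which 7 could be tested, and their log2 fold changes ran from -0.61 to 0.50. At the unadjusted p of 0.05, 0 of the 7 were called by edgeR and 0 by DESeq2. Of all genes tested, edgeR called 8.58% and DESeq2 10.2%, so 0 calls among so few genes says little. They included the IL-36 cytokine genes *Il1f6*, *Il1f8* and *Il1f9*, the IL-36 receptor antagonist gene *Il1f5* (0.25, standard error 0.28) and, on the other side, *Psd4* (0.21). Within 250 kb of *Il1a*, log2 fold changes ran from -0.14 to 0.57 for the neighbours other than *Il1b*. Around *Il1r1*, 1 of 6 neighbours was called, *Il1rl2*, the IL-36 receptor gene, which starts 7353 bases after *Il1r1* ends. *Il1rl2* had 17.9 and 23.4 CPM in WT against 35.6 and 38.7 CPM in the libraries labelled *Sirt6*-/-, and edgeR's quasi-likelihood test gave it an adjusted p = 0.54, the log2 fold change being 0.85 (standard error 0.28). *Il1r2* and *Il1rl1*, on either side of this pair, were at 0.02 and -0.33.

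**Figure D4:**
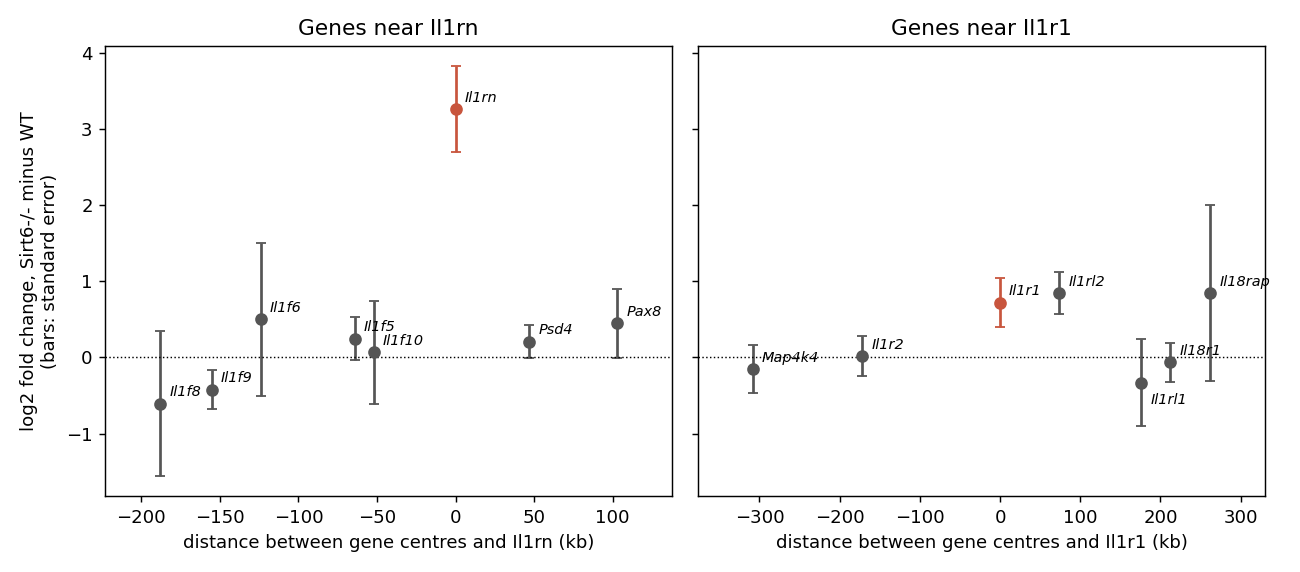
Log2 fold change with its standard error against the distance in kb between gene centres, for genes around *Il1rn* (left) and *Il1r1* (right), the central gene in red. *Il1rn* at 3.26 is far from its neighbours (-0.61 to 0.50), while *Il1r1* and *Il1rl2* lie at 0.72 and 0.85.

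The remaining genes of the pathway were taken from 4 lists, chosen with earlier results known and containing none of the 10. Among 9 tested other ligands and receptors of the family, 1 was higher at the unadjusted p of 0.05 (*Il1rl2*) and 0 were lower, in edgeR and in DESeq2 alike. The most abundant of them by TPM, *Il1f5*, had 40.1 and 39.5 CPM in WT against 38.3 and 56.2 CPM in the libraries labelled *Sirt6*-/-. Of 31 genes of IL-1 receptor signaling, from the adaptor *Myd88* to the MAP kinases, 2 were higher and 0 lower with edgeR. This is 6.45% of the list, no more than the 8.58% of all genes tested. DESeq2 called 12.9% of it (3 higher, 1 lower) and 10.2% of all genes. The 2 genes called by edgeR were *Irak4*, a kinase bound by MyD88 (8.31 to 9.24 CPM in WT, 16.1 to 16.3 CPM in the other group, log2 fold change 0.88), and *Sqstm1*, the p62 scaffold (1169 and 1221 against 1853 and 1916 CPM, log2 fold change 0.66). Of 30 genes of the inflammasome, processing and release, 2 were called (6.67%), again no more than the share of all genes. *Txnip* was higher (253 and 248 against 410 and 403 CPM) and *Ninj1*, which ruptures the membrane of dying cells, was lower (39.5 and 37.9 against 25.2 and 22.3 CPM). *Serpinb1a*, a protease inhibitor and the most abundant of that list, was not called (log2 fold change -0.12).

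Of the 4 lists, the genes that IL-1 is known to induce held the largest number of calls. Of 28, 8 were higher and 3 lower at the unadjusted p of 0.05, where 5.27% and 3.32% of all genes tested were. The split by direction depended on the scaling. With upper quartile normalization 2 were higher and 4 lower, and scaling by library size alone gave 3 and 4, while the calls over all genes went from 977 higher and 615 lower to 751 and 800, and to 721 and 838. The median log2 fold change of this list was 0.22, against 0.07 for the other family genes, 0.07 for receptor signaling and -0.07 for the inflammasome list. The higher genes with TMM were *Ptges* (1.15) and *Ptgs2* (0.57), enzymes of prostaglandin E2 synthesis, *Nfkbiz* (0.87) and *Tnfaip3* (0.47), regulators of NF-κB, *Nos2* (0.88), the chemokine genes *Cxcl1* (0.43) and *Cxcl2* (0.58), and *Icam1* (0.43), an adhesion molecule. The lower ones were the acute-phase genes *Saa1* (-1.15) and *Saa3* (-0.75) and the chemokine gene *Cxcl5* (-0.89).

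*Ptges* had 87.2 and 104 CPM in WT against 203 and 224 CPM in the libraries labelled *Sirt6*-/-. *Nfkbiz* had 162 and 189 against 306 and 337 CPM, and *Saa1* 97.9 and 117 against 45.4 and 51.2 CPM. In these 3 genes the replicates lay close together and the groups apart, and each of the 3 kept its direction and its unadjusted call under all 12 alternatives. *Nfkbia*, the most abundant of the list and an inhibitor of NF-κB, was not called, at 2752 and 2761 CPM in WT against 2902 and 3107 CPM in the other group. Markers of tuft cells, an mTEC subset, were lower in sum in the libraries labelled *Sirt6*-/-. The 9 measured summed to 571 and 670 CPM in WT against 314 and 309 CPM in the other group. Of these, 5 were lower and 0 higher at the unadjusted p in edgeR's test, where 3.32% and 5.27% of all genes tested were. The defining marker *Il25* was under 1 CPM in all libraries. By log2 fold change *Pou2f3* (0.24) and *Dclk1* (0.36) went the other way, *Pou2f3* with 38.4 and 44.2 CPM in WT against 53.0 and 44.7 CPM. Markers of cornified mTECs, 11 measured, summed to 634 and 681 CPM in WT against 792 and 856 CPM in the other group. At the unadjusted p in edgeR's test, 3 were higher and 0 lower. By log2 fold change *Krt1* (-0.81), *Krt10* (-1.31), *Lor* (-0.68) and *Klk7* (-0.55) went the other way. In the TEC and mTEC list, 4 were higher and 0 lower. The part of tuft cells and cornified mTECs in the values of *Il1rn* and the pathway genes, like that of the macrophage list, was not tested.

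No gene of the 4 lists passed the adjusted p of 0.05 with edgeR's quasi-likelihood test (0 of 98 tested, 16 at the unadjusted p), with adjusted p-values of 0.54 to 0.58 for the called genes. In all, 1 of 18547 genes passed it (0.00539%). With DESeq2, 354 genes did, among them *Sqstm1*, *Txnip*, *Nfkbiz*, *Ptges* and *Saa1* of the lists. The count of 11 called genes among those induced by IL-1 was 6 with upper quartile normalization, 5 without WT 1, 7 without WT 2 and 4 without *Sirt6*-/- 1.

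**Figure D5:**
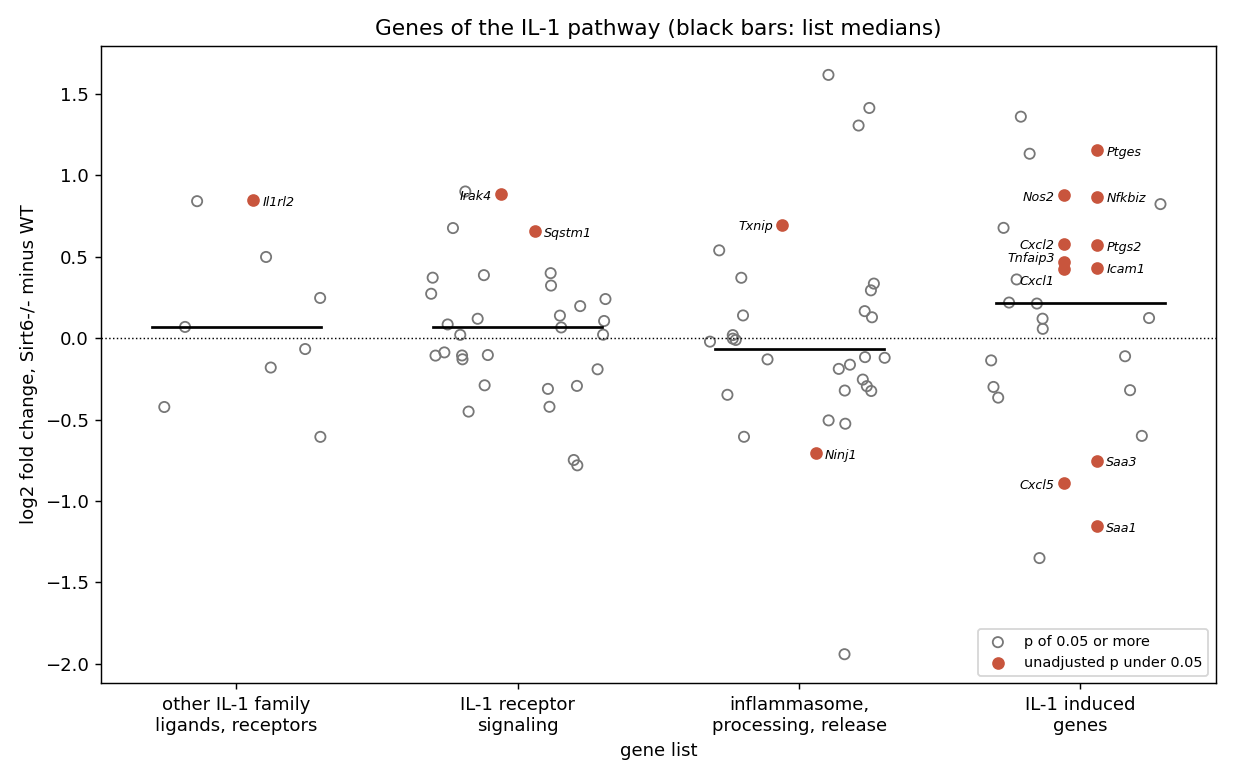
Log2 fold change (libraries labelled *Sirt6*-/- minus WT) of each tested gene in 4 lists of the IL-1 pathway, filled red at an unadjusted p under 0.05 and open otherwise, with black bars for the medians. The IL-1 induced genes hold 11 of the 16 called genes, 8 above and 3 below 0 with TMM, a split that is 2 and 4 with upper quartile normalization and 3 and 4 with library size alone.

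The genes most like *Il1rn* in pattern were sought among 10408 genes with a mean of 10 CPM or more, by the root mean square difference of log2 CPM centred on each gene's mean over the 4 libraries. *Uba3*, which encodes a subunit of the NEDD8-activating enzyme, was nearest (0.57), with 3.33 and 3.16 CPM in WT against 39.8 and 39.1 CPM in the libraries labelled *Sirt6*-/-. *Gimap4* (0.67), *Axl* (0.77), *Patz1* (0.79) and *Ptp4a3* (0.81) followed. As with *Il1rn*, the level of *Patz1* (34.3 and 3.98 CPM) and of *Ptp4a3* (1.12 and 0.456 CPM) was higher in WT 1 than in WT 2. The genes were picked for matching *Il1rn* over all 4 libraries, so this shared order follows in part from the choice. *Axl*, a receptor tyrosine kinase gene and the most abundant of the 5, had 37.7 and 36.2 CPM in WT against 192 and 207 CPM in the other group.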

How the data were processed

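RNA-seq of sorted mTECs was deposited as whole-number counts for 23337 genes, not normalized, and as TPM for each library. Trim Galore was used by the authors for trimming, HISAT2 2.1.0 for alignment to mm10, and StringTie 1.3.3 for the deposited counts and TPM values. The annotation and the use of strand are not given in the sources used here, so reads of *Il1a*, *Il1b*, *Il1rap* and *Il18bp* could not be told from those of the genes that overlap their exons on the opposite strand (222, 25, 552 and 80 bases). A line with the column total was left out of the deposited TPM tables, and TPM summed to 1000000 in each library.

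Counts were tested with edgeR 4.0.16 in R 4.3.3 (TMM, filterByExpr at its defaults, a count of 10 and a total of 15, glmQLFit and glmQLFTest, 4 libraries, no covariate), with Benjamini-Hochberg adjustment over 18547 genes. The biological coefficient of variation was 0.557, and 2 libraries a group limit the precision. An exact two-sided permutation test of 2 against 2 cannot go below p = 0.333. No pair of libraries was a duplicate (chi-square of 166 or more per gene). CPM used TMM factors. Positions came from GENCODE M21. The 10 genes, the lists and the tests were chosen with earlier results of these data known. Named in the text are the 10 genes, *Sirt6*, list genes at an unadjusted p under 0.05 and the most abundant gene of each list. Also named are the 5 genes nearest to *Il1rn* and marker genes that are most abundant or near 0. Neighbours were named by position. *Ptprc*, *Myd88*, *Il18r1*, *Il18rap*, *Pou2f3*, *Dclk1*, *Krt1*, *Krt10*, *Lor*, *Klk7* and the patterns singled out among the named genes were chosen after their values were seen. List symbols were matched to older symbols of the files, and 3 misspelled ones were corrected. The alternatives were DESeq2 1.42.0, limma 3.58.1 on log2(TPM + 1) and log2(TPM + 0.1), other scalings and filters, the replicate number as a block, and each library left out.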

Additional observations from a re-analysis of the deposited data

How the results depend on the processing

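The log2 fold change of *Il1rn* lay between 2.66 and 4.28 with 1 library left out (2.66 without WT 2 and 4.28 without WT 1) and between 3.18 and 3.48 under the 8 other alternatives. *Il1r1*, *Il1rap* and *Il18bp* kept their direction under all 12 alternatives, and *Il1a*, *Il1b*, *Il18* and *Il1rl1* changed it in 1 each, *Il33* in 2 and *Il1r2* in 6. The count of called IL-1 induced genes (11) was 6 with upper quartile scaling, 7 with library size alone, 6 with limma on log2(TPM + 1), 4 with limma on log2(TPM + 0.1) and 4 to 11 with 1 library left out. For receptor signaling (2) it was 4 with DESeq2, 1 with limma at either pseudocount and 1 to 4 with 1 library left out. For the inflammasome list (2) it was 0 with limma on log2(TPM + 0.1) and 1 to 3 with 1 library left out, and for the other family genes (1) it was 0 to 1. Of the 10 genes described, 2 were called with DESeq2 and 1 to 3 with 1 library left out. Over all genes, 735 to 1762 were called at the unadjusted p with 1 library left out (735 without *Sirt6*-/- 1) against 1592. At the adjusted p (1) the count was 354 with DESeq2, 2 with a filter of TPM over 0.1, 0 with limma on log2(TPM + 0.1) and 0 to 0 with 1 library left out. Of the genes called at the unadjusted p, 61.4% were higher in the libraries labelled *Sirt6*-/- with TMM, against 48.4% when scaled by the upper quartile and 46.2% by library size alone. The 16 named list genes kept their direction in all 192 refits and the unadjusted p in 128. The cause was not tested. A left-out library leaves its group with a single one, assumed to vary like the other group.

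The labels do not say that equal replicate numbers mark a pair, and the correlation of the deviations of same-numbered libraries from their group means was -0.05 with only 2 pairs. With the replicate number as a block, *Il1rn* was at 3.48, 1 gene was called for receptor signaling and 1 for the inflammasome list, and 1146 of all genes at the unadjusted p and 0 at the adjusted p.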
